A study of Mus musculus with 12 samples.

Results

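The 10 genes described here make up de novo fatty acid synthesis in the liver, from the export of citrate out of mitochondria to the first elongated and desaturated fatty acids. They were chosen by their function in the pathway, with no rule on their values but with earlier results of these data known. They are Slc25a1, Acly, Acss2, Acaca, Acacb, Fasn, Elovl6, Scd1, Me1 and Thrsp, and all 10 were found among the 55385 features of the deposited liver RNA-Seq table. All 10 are protein-coding and were among the 16378 genes tested, which had a mean of at least 1 TPM (a transcript level that is corrected for gene length and scaled to the same total in every sample). TPM was measured in the livers of 12 male C57BL/6 mice aged 7 weeks, 4 per group, collected 7 days after adenovirus injection. Ad-Ctrl mice received the control viruses Lac and pAdV5. Ad-shmGULL mice received a virus carrying a short hairpin RNA against mGULL, a mouse liver long noncoding RNA, together with pAdV5. Ad-shmGULL+hGULL mice received the same hairpin together with a virus expressing hGULL, the human lncRNA the study pairs with mGULL. All 3 groups therefore carried adenovirus, at equal total viral particles, and no group was uninfected. The route is given as intravitreal in one description and as retro-orbital in another, and neither the feeding state nor the time of killing is given. The levels of mGULL and hGULL were not analysed here, so the knockdown itself was not checked.

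De novo lipogenesis turns surplus carbohydrate into fatty acids, mainly in hepatocytes and adipocytes. Citrate leaves the mitochondrion, is split to acetyl-CoA, is carboxylated to malonyl-CoA, and is built into palmitate by fatty acid synthase with NADPH as the reductant. In liver the genes of this pathway are known to be switched on together after a carbohydrate meal, through the transcription factors SREBP1c (from Srebf1) and ChREBP (from Mlxipl), with LXRα (from Nr1h3) acting upstream of Srebf1.

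The promoters are shown first because these genes are textbook targets of shared factors, SREBP1 among them. The 300-base windows run from 250 bases before to 50 bases after a RefSeq transcript start in GRCm38.p6, the build used for the reads. Windows were found for 9 of the 10 genes, all but Scd1, and Me1 had 2. Printed below are those of the 4 genes with the largest change after knockdown (Thrsp, Elovl6, Fasn and Acly) and, for contrast, of the 2 with the smallest (Slc25a1 and Acss2). Sequences read 5′ to 3′ on the strand of the gene. Capitals mark every match, on either strand, to the palindromic E-box CACGTG, the sterol regulatory element TCANNCCAC and the CCAAT box, which is bound by NF-Y and reads ATTGG on the opposite strand.
Thrsp (chr7:97417501-97417800, minus strand): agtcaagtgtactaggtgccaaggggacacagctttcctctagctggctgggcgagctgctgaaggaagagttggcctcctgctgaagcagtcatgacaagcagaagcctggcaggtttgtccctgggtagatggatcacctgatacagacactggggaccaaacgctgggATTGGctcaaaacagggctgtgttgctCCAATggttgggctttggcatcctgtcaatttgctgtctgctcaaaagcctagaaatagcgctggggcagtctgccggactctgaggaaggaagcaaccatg
Elovl6 (chr3:129532136-129532435, plus strand): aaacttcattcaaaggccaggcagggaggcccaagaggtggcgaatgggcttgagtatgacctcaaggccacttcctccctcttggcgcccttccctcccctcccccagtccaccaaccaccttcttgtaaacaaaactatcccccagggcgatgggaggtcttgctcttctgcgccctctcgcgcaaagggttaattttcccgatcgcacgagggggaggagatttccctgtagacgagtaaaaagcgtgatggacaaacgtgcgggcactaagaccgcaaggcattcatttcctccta
Fasn (chr11:120824498-120824797, minus strand): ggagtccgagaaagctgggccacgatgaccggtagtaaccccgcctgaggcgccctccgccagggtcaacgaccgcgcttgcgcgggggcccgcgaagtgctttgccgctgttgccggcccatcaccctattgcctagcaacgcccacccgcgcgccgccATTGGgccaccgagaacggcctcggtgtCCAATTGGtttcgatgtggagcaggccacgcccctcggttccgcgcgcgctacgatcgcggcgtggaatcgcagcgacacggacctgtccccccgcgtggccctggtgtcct
Acly (chr11:100527951-100528250, minus strand): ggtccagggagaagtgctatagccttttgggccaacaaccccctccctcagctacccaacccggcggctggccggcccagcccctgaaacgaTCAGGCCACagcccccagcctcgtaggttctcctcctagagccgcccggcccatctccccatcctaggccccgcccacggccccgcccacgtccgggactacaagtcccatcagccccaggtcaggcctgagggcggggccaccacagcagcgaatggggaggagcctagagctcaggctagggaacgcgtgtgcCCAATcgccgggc
Slc25a1 (chr16:17928170-17928469, minus strand): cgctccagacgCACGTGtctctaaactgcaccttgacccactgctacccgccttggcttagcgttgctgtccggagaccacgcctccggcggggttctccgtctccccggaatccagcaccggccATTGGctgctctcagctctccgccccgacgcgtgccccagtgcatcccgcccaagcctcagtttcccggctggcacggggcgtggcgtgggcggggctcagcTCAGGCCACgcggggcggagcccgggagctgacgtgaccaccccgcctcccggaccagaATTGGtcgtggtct
Acss2 (chr2:155517793-155518092, plus strand): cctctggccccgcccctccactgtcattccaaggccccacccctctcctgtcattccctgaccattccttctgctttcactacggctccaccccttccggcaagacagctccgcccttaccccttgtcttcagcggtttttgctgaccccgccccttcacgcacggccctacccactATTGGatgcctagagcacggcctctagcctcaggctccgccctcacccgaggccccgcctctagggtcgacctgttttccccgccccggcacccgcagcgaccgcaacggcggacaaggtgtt
The sterol element letters were present in 3 of the 9 genes, Acly, Slc25a1 and Acacb, against 4.18% of all 32851 promoter windows of the same length. They lay 158 bases before the start in Acly (-158), at -23 in Slc25a1 and at -210 in Acacb. The Acly and Slc25a1 windows carried the same 9 letters, TCAGGCCAC, although the first gene was among the most changed and the second among the least. The CCAAT box was present in 7 of 9 genes (37.4% of all windows), and Fasn and Thrsp had copies on both strands, at -90, -62 and -59 in Fasn and at -79 and -52 in Thrsp. The copies at -62 and -59 in Fasn overlap, since CCAATTGG reads as the box on both strands. The E-box was found in Slc25a1 alone (7.15% of windows), and the Elovl6 window held none of the 3 motifs. The GC box GGGCGG, whose matches overlapped none of the marked motifs, was present in 4 genes (35.7% of windows), the TATA box TATAAA in Acacb alone (13.6%), and the LXR response element in none of the 9 (0.0152%). The Fasn, Acaca and Acacb windows, and 1 of those of Me1, lie inside the annotated gene span rather than at its outermost end, so other starts of these genes were not searched. The only CCAAT match of Me1 lay in its window inside the gene. A gene was counted if any of its windows matched, whereas the shares are of single windows, so the 2 are not in the same unit. Primer pairs for SREBP1 chromatin immunoprecipitation at Acly, Fasn and Elovl6 were also searched for, and the forward Acly primer matched, on the opposite strand, bases 1 to 20 of the Acly window. The other 5 primers had no exact match in these windows.

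In the livers of Ad-Ctrl mice the 10 genes spanned 2 orders of magnitude in TPM. Scd1, the Δ9 desaturase that makes oleate from stearate, was the most abundant at 3234 ± 682 TPM (SD, n = 4). It was followed by Thrsp at 293 ± 128, Slc25a1 at 219 ± 19.0, Me1 at 208 ± 60.9, Fasn at 136 ± 31.8 and Acly at 129.8 ± 21.3 TPM. Acacb (68.6 ± 10.4), Elovl6 (52.4 ± 2.72), Acss2 (41.9 ± 6.40) and Acaca (24.6 ± 3.63 TPM) were lowest. Scd1 stood apart from the rest, whereas Thrsp, Slc25a1 and Me1 overlapped one another, as did Fasn and Acly. In Ad-shmGULL livers Scd1 and Thrsp kept the first and second place, and Slc25a1 moved from the third place to the sixth, below Me1, Fasn and Acly. Summed over the 10 genes, the level was 4407 ± 886 TPM in Ad-Ctrl, 10977 ± 4079 in Ad-shmGULL and 7175 ± 1321 in Ad-shmGULL+hGULL livers. Scd1 made up 73.3 ± 3.71%, 64.9 ± 7.95% and 68.3 ± 4.04% of these sums. Without it the sums were 1173 ± 274, 3715 ± 1260 and 2271 ± 501 TPM. The sum in Ad-shmGULL mice ran from 6860 TPM in replicate 1 to 15108 TPM in replicate 2, above all 4 Ad-Ctrl mice, which lay between 3369 and 5443 TPM. The Ad-shmGULL+hGULL mice, at 5452 to 8634 TPM, overlapped the Ad-shmGULL mice. Their lowest sum, 5452 TPM in replicate 4, was almost level with the highest control sum, 5443 TPM in replicate 1. The sums were not compared under other scalings, so this narrow gap is not read as a separation.

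**Figure D1:**
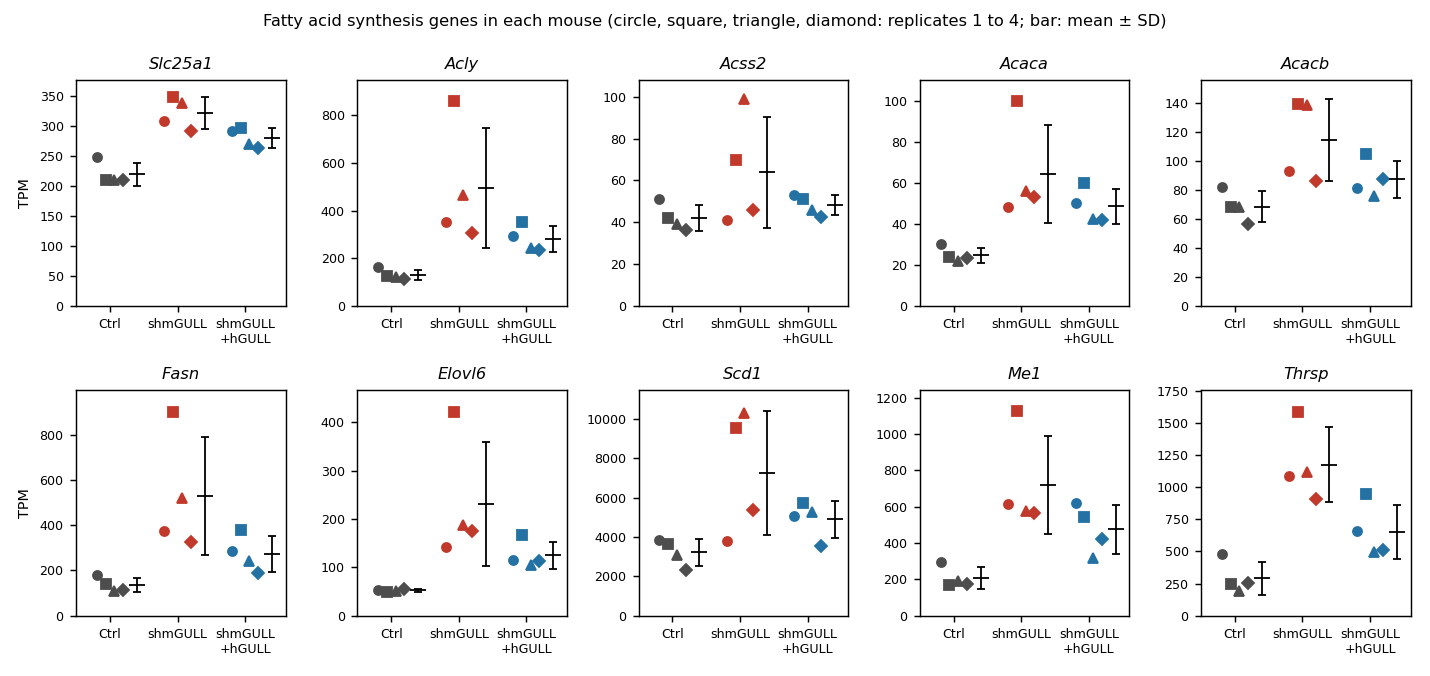
TPM of each of the 10 genes in each mouse, with a linear axis from 0. Points are single mice, with replicates 1 to 4 as circle, square, triangle and diamond, and the bar beside them is the mean ± SD of 4 mice. Ad-shmGULL replicate 2 (red square) is the highest of all 12 mice for 8 genes, and Ad-shmGULL+hGULL mice (blue) lie between the other groups in their means.

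After mGULL knockdown all 10 genes were higher than in Ad-Ctrl livers and passed the threshold of the study, which asks for a log2 fold change past 0.5 and an unadjusted P under 0.05. At that threshold 5.35% of all tested genes were higher. With the median of ratios or quantile normalization 8 of the 10 passed, without Slc25a1 and Acss2. With the stricter Benjamini-Hochberg adjusted p under 0.05 of limma's moderated test, 8 of the 10 rose (background 2.44%), all but Acss2 and Scd1. The same 8 had no overlap between the 4 knockdown and 4 control mice (background 6.93%). The median change of the 10 was 1.53 on the log2 scale, against 0.09 for all tested genes. All changes are of log2(TPM + 1), given with the standard error of the fit.

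Citrate supply was represented by Slc25a1, the mitochondrial citrate carrier, and Acly, which splits cytosolic citrate into acetyl-CoA and oxaloacetate. Acly was at 161, 123, 121 and 114 TPM in the Ad-Ctrl mice and at 351, 859, 465 and 305 TPM in the Ad-shmGULL mice. Every knockdown mouse lay above every control mouse, and replicate 2 stood well above the other 3. The change was 1.81 ± 0.26 (adjusted p = 0.00808), a 3.52-fold rise. Slc25a1 changed far less, from 247, 209, 209 and 209.8 TPM to 307, 348, 338 and 290.4 TPM, again with no overlap. Its change was 0.55 ± 0.09 (adjusted p = 0.00988), and its SD was only 8.67% and 8.29% of the mean in the 2 groups. Acss2 makes acetyl-CoA from free acetate and is the citrate-independent entry to the pathway. Its levels were 50.9, 41.8, 39.1 and 36.0 TPM in control and 40.9, 70.0, 98.9 and 45.6 TPM in knockdown livers. Knockdown replicates 1 and 4 fell within the control range and replicates 2 and 3 lay above it. The difference of 0.52 ± 0.22 passed the threshold of the study but not the adjusted test (adjusted p = 0.218; 95% interval 0.03 to 1.01). It also missed the threshold of the study without the 20 highest genes, with the 2 groups alone, and without Ad-Ctrl replicates 2, 3 or 4 or Ad-shmGULL replicates 2 or 3 in turn.

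Acaca and Acacb encode the 2 acetyl-CoA carboxylases, the cytosolic one that supplies malonyl-CoA for synthesis and the mitochondrial one whose malonyl-CoA inhibits Cpt1a. Acaca was at 29.9, 23.7, 21.7 and 23.1 TPM in control and 48.4, 100.1, 56.1 and 53.0 TPM in knockdown livers, a change of 1.30 ± 0.20 (adjusted p = 0.00988). Acacb was at 81.9, 68.0, 68.2 and 56.4 TPM and then at 93.5, 139.7, 139 and 86.5 TPM, a change of 0.71 ± 0.17 (adjusted p = 0.0445). Neither gene's groups overlapped, but the lowest knockdown mouse for Acacb was close to the highest control mouse. The Acacb call was the least firm of the 8: it passed the adjusted test without 3 of the 12 mice in turn and missed it without each of the other 9, with adjusted p from 0.0292 to 0.113.

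Fasn, the multifunctional enzyme that builds palmitate, was at 179, 141, 109.9 and 113 TPM in control and at 374, 902, 519 and 328 TPM in knockdown livers. The groups were apart, and the change was 1.87 ± 0.30 (adjusted p = 0.00995), or 3.66-fold. Elovl6, which elongates palmitate to stearate, was the steadiest gene in control livers, at 54.2, 49.3, 50.9 and 55.0 TPM. It reached 142, 422, 187 and 176 TPM after knockdown, so that even its lowest knockdown mouse was far above the controls, with a change of 1.99 ± 0.27 (adjusted p = 0.00677). Scd1 was at 3862, 3651, 3087 and 2337 TPM in control and 3801, 9558, 10297 and 5393 TPM in knockdown livers. Replicate 1 of the knockdown group lay inside the control range, and the other 3 lay above it. The change of 1.08 ± 0.30 did not pass the adjusted test (adjusted p = 0.0679). Leaving out each of the 12 mice in turn, it failed the adjusted test in 11 runs. It passed only without Ad-shmGULL replicate 1, the mouse inside the control range, where it was 1.35 (adjusted p = 0.026). Over the 12 runs the change went down to 0.87 and the adjusted p up to 0.164.

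Me1, cytosolic malic enzyme and a source of NADPH, was at 298, 169, 193 and 173 TPM in control and 613, 1123, 574 and 565 TPM in knockdown livers. The change was 1.76 ± 0.26 (adjusted p = 0.00822), with replicate 2 far above 3 closely grouped mice. Thrsp encodes Spot 14, a small nuclear and cytosolic protein known to accompany lipogenesis. It had the largest change of the 10, from 479, 251, 189 and 252 TPM to 1089, 1586, 1117 and 907 TPM. That is 2.06 ± 0.28 on the log2 scale (adjusted p = 0.00677), or 4.17-fold, and its lowest knockdown mouse was well above its highest control mouse.

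The mice within a group differed in the same direction across most of the 10 genes. Ad-Ctrl replicate 1 was the highest control mouse for 9 genes, all but Elovl6. Ad-shmGULL replicate 2 was the highest knockdown mouse for 8 genes, and replicate 3 for Acss2 and Scd1. Relative to the control mean, the median level over the 10 genes was 2.34-fold in Ad-shmGULL replicate 1, 4.73-fold in replicate 2, 2.97-fold in replicate 3 and 2.25-fold in replicate 4. Replicates 2 and 3 exceeded the highest control mouse for all 10 genes, replicate 4 for 9 and replicate 1 for 8. Pearson's r of each gene with the mean of the other 9 over the 12 mice, which includes the differences between groups, was 0.75 for Acss2, 0.90 for Scd1 and 0.93 to 0.99 for the other 8. Without Ad-shmGULL replicate 2, the same 8 genes less Acacb kept an adjusted p under 0.05, and all 10 changes stayed positive.

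**Figure D2:**
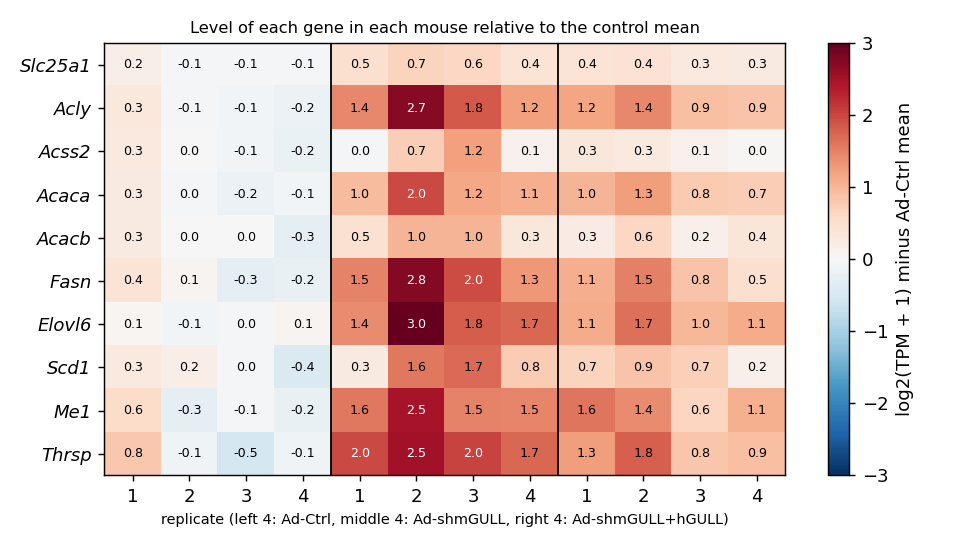
Level of each gene (rows) in each mouse (columns) as log2(TPM + 1) minus the mean of the 4 Ad-Ctrl mice, with red above and blue below the control mean. Ad-shmGULL replicate 2 is the darkest column for 8 genes, the Acss2 row is pale in Ad-shmGULL replicates 1 and 4, and no Ad-shmGULL+hGULL column is as pale as the Ad-Ctrl columns for Elovl6, Acly or Acaca.

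When hGULL was expressed on top of the knockdown, the means of all 10 genes were lower than in Ad-shmGULL livers and higher than in Ad-Ctrl livers. Most tested genes were also higher than in Ad-Ctrl livers (81.85%), so that direction alone sets the 10 little apart. Against Ad-shmGULL livers 70.92% of tested genes were higher, whereas the 10 were lower. The comparison with Ad-shmGULL livers shares the 4 knockdown mice with the one above, so its direction is not independent of it. The difference passed the threshold of the study for 5 of the 10 genes, Acly, Fasn, Elovl6, Me1 and Thrsp, against 0.672% of tested genes that were lower. None of the 10 had an adjusted p under 0.05, and neither did any tested gene (0% lower; smallest adjusted p 0.117). With limma at an unadjusted P under 0.05 there were 1757 tested genes, 10.7%, and 6 of the 10, namely the 5 named and Slc25a1. No gene of the 10 had groups without overlap (background 0.983%).

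The largest differences were in Fasn and Thrsp. Fasn was at 285, 379, 240.1 and 188 TPM in Ad-shmGULL+hGULL livers, and replicate 2 lay inside the knockdown range of 328 to 902 TPM. The difference from knockdown was -0.89 ± 0.30 (adjusted p = 0.389), and its 95% interval ran from -1.53 to -0.25. Thrsp was at 660.5, 949, 494 and 512 TPM, with 3 mice below the lowest knockdown mouse, and differed by -0.87 ± 0.28 (adjusted p = 0.374). Elovl6, at 115, 167, 106 and 114 TPM, differed by -0.77 ± 0.27 (adjusted p = 0.399), and Acly, at 295, 351, 241 and 234 TPM, by -0.72 ± 0.26 (adjusted p = 0.404). In both, 3 of the 4 rescue mice lay below the lowest knockdown mouse. Me1, at 619.6, 540.5, 316 and 425 TPM, differed by -0.58 ± 0.26 (adjusted p = 0.463), and its replicate 1 was higher than 3 of the 4 knockdown mice. The other 5 genes differed by -0.20 (Slc25a1) to -0.47 (Scd1), and the intervals of Acss2, Acaca, Acacb and Scd1 included 0.

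These 5 calls rested in part on single mice. Without Ad-shmGULL replicate 2 the count fell to 2, Fasn and Thrsp. Without Ad-shmGULL+hGULL replicate 4, the lowest rescue mouse for 6 of the 10 genes, it was 3, Fasn, Elovl6 and Thrsp. Without Ad-shmGULL replicate 1 it was 6, with Acss2 and Scd1 gained and Me1 lost. All 10 differences stayed negative in every one of these settings.

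The Ad-shmGULL+hGULL livers were also compared with Ad-Ctrl livers, to see how far the 10 genes remained from the control level. The difference passed the threshold of the study for 6 genes, Acly (1.10 ± 0.26), Acaca (0.95 ± 0.20), Fasn (0.98 ± 0.30), Elovl6 (1.22 ± 0.27), Me1 (1.18 ± 0.26) and Thrsp (1.20 ± 0.28), against 6.84% of all tested genes that were higher. For these 6 and Slc25a1 (0.35 ± 0.09) every rescue mouse lay above every control mouse, a pattern held by 21.4% of tested genes. Acaca, for example, was at 50.2, 60.0, 42.5 and 41.8 TPM against at most 29.9 TPM in control mice. Slc25a1 was at 291, 296, 269 and 262 TPM. The adjusted p was under 0.05 for 4 genes (background 2.12%), Acaca (0.0426), Elovl6 (0.0426), Me1 (0.0445) and Thrsp (0.0488), and just above it for Acly (0.0508) and Slc25a1 (0.0508). Acss2, Acacb and Scd1 overlapped the control mice, at 42.4 to 53.0, 75.7 to 105 and 3546 to 5736 TPM, and their intervals of the difference included 0. In this comparison the adjusted calls were not steady. With the scaling unchanged they fell to 0 without the filter, without the trend, with the replicate block and without some single mice. They also fell with other scalings. The median of all tested genes was itself 0.17 above 0, and after scaling by the median of ratios, which removes that shift, 0 of the 10 had an adjusted p under 0.05. With that scaling the 6 genes differed by 0.75 to 1.02, still past the threshold of the study, whereas Acss2 differed by 0.0005.

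**Figure D3:**
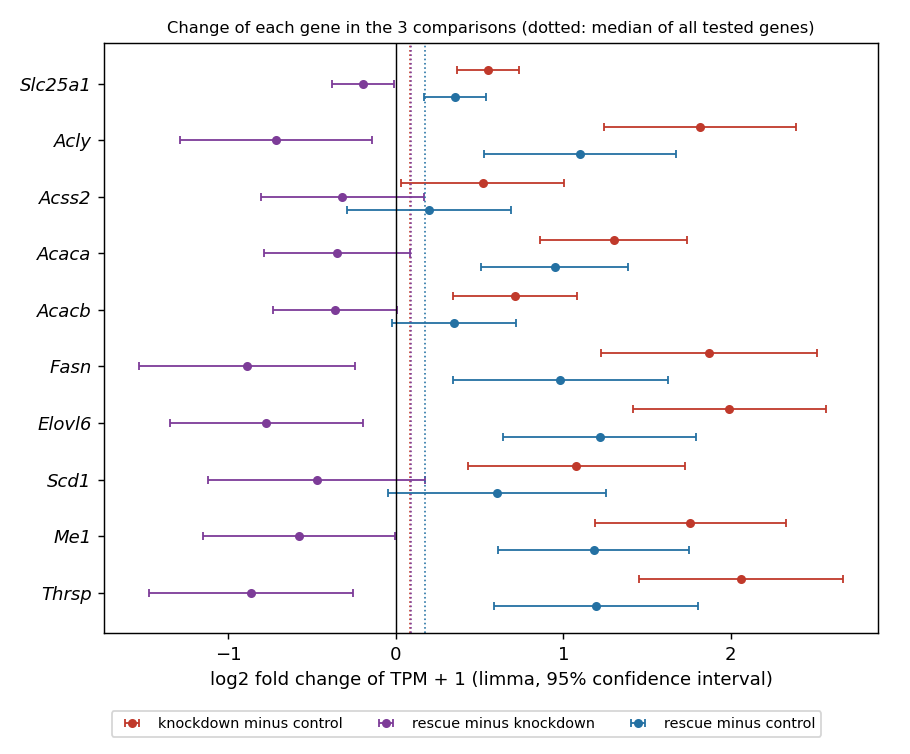
Log2 fold change of TPM + 1 of each gene in the 3 comparisons, with 95% confidence intervals from limma. Dotted lines are the medians of all 16378 tested genes, 0.09, 0.09 and 0.17. All 10 red points (knockdown minus control) and blue points (rescue minus control) are right of 0 and all 10 purple points (rescue minus knockdown) are left of it. Of all tested genes, 65.52% are right of 0 in knockdown minus control, 81.85% in rescue minus control and 70.92% in rescue minus knockdown.

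Whether the 10 genes changed by equal factors was looked at in ratios of 2 genes within each mouse, which need no scaling between samples. There were 6 pairs, each compared over the 3 group comparisons, 18 tests in all. Each was an exact two-sided permutation test of 4 mice against 4, whose smallest possible p is 0.0286. Tests at that p had a Benjamini-Hochberg adjusted p of 0.0735 over the 18, a value that depends on how many tests reached it. No ratio passed an adjusted p of 0.05, so each is given with whether the groups overlapped. The ratio of Acly to Acss2, the citrate and the acetate route to acetyl-CoA, was 3.13, 2.90, 3.04 and 3.11 in control, 8.41, 12.1, 4.67 and 6.57 in knockdown and 5.48, 6.76, 5.18 and 5.42 in rescue livers. It was nearly constant in control mice, and both other groups lay wholly above them, by 1.30 ± 0.29 and 0.90 ± 0.09 on the log2 scale. The ratio of Slc25a1 to Acly was above 1 in every control mouse, at 1.53 to 1.83, and below 1 in every knockdown mouse, at 0.406 to 0.952. Rescue mice, at 0.844 to 1.12, overlapped the knockdown mice and lay below the control mice.

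The ratio of Fasn to Acaca behaved differently. It was 4.74 to 5.81 in control, 6.09 to 9.11 in knockdown and 4.41 to 6.24 in rescue livers. The knockdown mice lay above the control mice by 0.57 ± 0.16, and the rescue mice differed from the control mice by 0.03 ± 0.13 (exact permutation p = 0.857). Acaca to Acacb was 0.328 to 0.421 in control and 0.482 to 0.620 in rescue livers, which did not overlap, whereas 1 knockdown mouse, replicate 3 at 0.409, fell in the control range. It differed by 0.01 ± 0.19 between rescue and knockdown (exact permutation p = 0.943). Thrsp to Mid1ip1, the ratio of Spot 14 to its paralog, was 7.32 to 14.2 in control and 19.5 to 27.3 in knockdown livers, again with no overlap, and 10.4 to 20.1 in rescue livers, which overlapped both. Scd1 to Elovl6 was 41.8 to 72.6 in control and 22.6 to 54.7 in knockdown livers, and overlapped in all 3 comparisons.

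**Figure D4:**
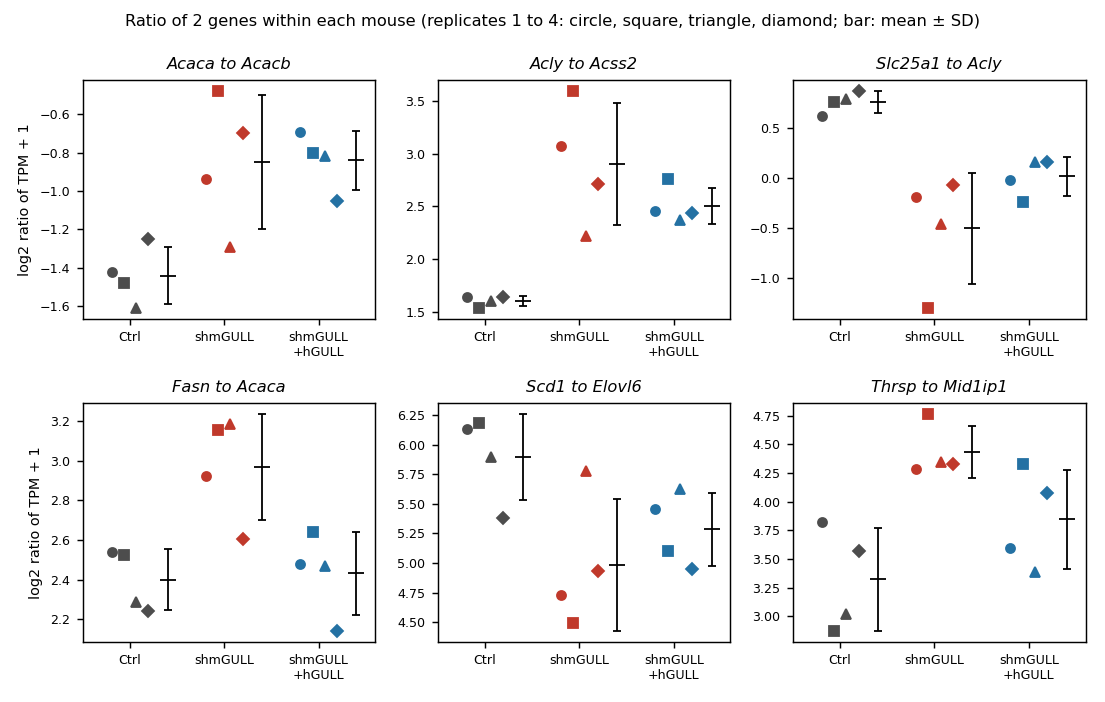
Log2 ratio of TPM + 1 of 2 genes within each mouse, for 6 pairs, with the mean ± SD of 4 mice beside the points. Acly to Acss2 and Slc25a1 to Acly separate the control mice (grey) from both other groups, whereas Fasn to Acaca separates them from the Ad-shmGULL mice (red) alone.

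Of 34 other genes of cytosolic fatty acid synthesis, 29 were tested. In knockdown minus control 9 passed the threshold of the study as higher and 0 as lower (background 5.35% higher and 2.3% lower). The median over the 29 was 0.24, far below the median of the 10. Mid1ip1, which binds and activates acetyl-CoA carboxylase, was at 32.9, 33.4, 22.4 and 20.3 TPM in control and 55.0, 57.3, 54.0 and 44.3 TPM in knockdown livers (0.95 ± 0.19, adjusted p = 0.0242). Acss3, a mitochondrial short-chain acyl-CoA synthetase, rose from 9.36 ± 2.96 to 22.7 ± 4.69 TPM (1.23 ± 0.21, adjusted p = 0.014). Elovl5 (0.75), Pgd (0.85), Acot1 (0.95) and Acot4 (0.69) passed the threshold of the study but not the adjusted test, and Acot1 has close paralogs among which reads could be split. Cs and Acsl3 passed too, by 0.57 each, but not after scaling by the median of ratios, which left 6 of the 9. In rescue minus knockdown 0 of the 29 passed in either direction (background 2.33% higher and 0.672% lower). In rescue minus control 4 passed as higher and 0 as lower (background 6.84% higher and 0.641% lower), and after scaling by the median of ratios Acss3 alone did.

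Other gene lists were read against the same shares of all tested genes that were higher, 5.35% after knockdown and 6.84% in rescue minus control. None of the 9 tested genes of mitochondrial fatty acid synthesis, a separate pathway with its own enzymes, passed in any comparison, with medians of 0.07 after knockdown, 0.09 in rescue minus knockdown and 0.21 in rescue minus control. Of 16 sterol synthesis genes, largely targets of SREBP2, 5 passed as higher after knockdown, among them Hmgcs1 (0.92), Mvd (0.74) and Lss (0.53), 0 passed in rescue minus knockdown, and 2 were higher in rescue minus control. After scaling by the median of ratios the 3 counts were 4 (without Lss), 0 and 0. Of 12 fasting-induced genes, 4 passed as higher after knockdown, Cyp4a14 (1.83), Pdk4 (1.35), Acot1 (0.95) and the glucose-6-phosphatase gene G6pc (0.93), and Pck1, the gluconeogenic carboxykinase, as lower (-0.75). In rescue minus knockdown Cyp4a14 was lower by 1.11 log2 units (log2 fold change -1.11), and in rescue minus control G6pc (0.54) and Pck1 (-0.65) passed. Of 15 clock genes Cry1 passed after knockdown (0.93 ± 0.12, adjusted p = 0.00677) and Cry1 and Hlf in rescue minus control. G6pc and Hlf no longer passed in rescue minus control after scaling by the median of ratios. Since feeding state and time of killing are not given, the part of either in the level of the 10 genes was not tested.

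Among 25 regulators of lipogenesis, 3 passed the threshold of the study as higher after knockdown and 0 as lower, against 5.35% and 2.3% of all tested genes. After scaling by the median of ratios or quantile normalization there were 2, without Pparg. Srebf1, which encodes SREBP1, was at 110.4, 109, 87.5 and 78.9 TPM in control, 177, 138, 167 and 155 TPM in knockdown and 152, 144, 152 and 92.0 TPM in rescue livers. The knockdown mice lay above the control mice (0.72 ± 0.16, adjusted p = 0.0373; 0.62, adjusted p = 0.0809, with the median of ratios), and 3 of the 4 rescue mice did. The order of mice for Srebf1 matched that of the 10 genes only in part. Ad-Ctrl replicate 1 was its highest control mouse, as for 9 of the 10. Ad-shmGULL+hGULL replicate 4 was its lowest rescue mouse, as for 6 of the 10. Ad-shmGULL replicate 2, the highest knockdown mouse for 8 of the 10, was its lowest. Its highest rescue mouse was replicate 3, against replicate 2 for 8 of the 10. The part of Srebf1 in the level of the 10 genes was not tested. Insig1, which retains SREBP in the endoplasmic reticulum and is itself a SREBP target, was at 142 ± 6.80, 224 ± 47.2 and 192 ± 20.6 TPM in the 3 groups (0.63 ± 0.13 after knockdown, adjusted p = 0.0253). Pparg passed after knockdown with 0.57 ± 0.25 and not by its adjusted p of 0.221. Mlxipl was at 148 ± 12.4 in control, 202 ± 38.4 in knockdown and 214 ± 6.10 TPM in rescue livers. Its lowest knockdown mouse, at 167.7 TPM, lay just above its highest control mouse, at 167 TPM. Mlxipl missed the threshold after knockdown (0.43 ± 0.12, adjusted p = 0.0662), and passed it in rescue minus control (0.53 ± 0.12, adjusted p = 0.0441), where with the median of ratios it was 0.33 and passed neither. Nr1h3 was at 108 ± 9.55, 108 ± 4.05 and 112 ± 9.64 TPM, with changes of -0.01 to 0.05 and standard errors of 0.08. In rescue minus knockdown 0 of the 25 regulators passed, Srebf1 included (-0.26 ± 0.16, adjusted p = 0.572).

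**Figure D5:**
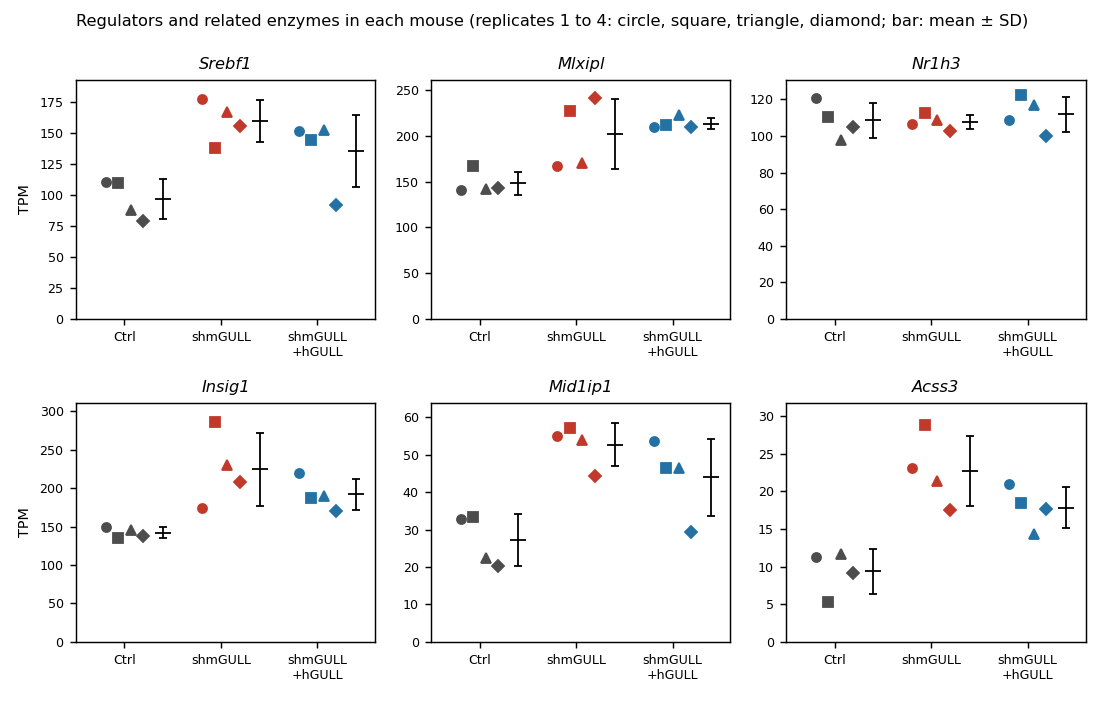
TPM in each mouse of Srebf1, Mlxipl, Nr1h3 and Insig1, which regulate lipogenesis, and of Mid1ip1 and Acss3, which are enzymes or partners near the pathway. Srebf1, Insig1, Mid1ip1 and Acss3 separate Ad-shmGULL from Ad-Ctrl mice, as does Mlxipl by a very small gap. Nr1h3 overlaps in all 3 groups, and Mlxipl is as high in Ad-shmGULL+hGULL as in Ad-shmGULL mice.

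The 8 tested genes whose levels most resembled the mean standardized level of the 10 over the 12 mice included Pklr (Pearson's r = 0.97), Gpam (0.97), Mocs2 (0.96), the processed pseudogene Gm5182 (0.96), Pnpla3, Rdh11 (0.95 each) and Myo1d (0.94). The points share the 3 groups, so these values describe likeness between groups as much as between mice, and the levels are given with no test because the genes were chosen for this pattern. Pklr, liver pyruvate kinase, was at 162 ± 28.5, 422 ± 90.1 and 326 ± 45.6 TPM in the control, knockdown and rescue groups. Gpam, which starts glycerolipid synthesis from acyl-CoA, was at 151 ± 33.3, 325 ± 106 and 242 ± 46.6 TPM. Pnpla3, a lipid droplet protein, was low throughout, at 0.713 ± 0.447, 3.73 ± 1.93 and 2.19 ± 1.26 TPM.

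The samples were checked for depth, composition and other cell types. Each sums to 1000000 TPM, so depth is unknown, 15525 to 16929 genes exceeded 1 TPM, and the 20 highest genes took 29.4% to 32.9% of the total in control, 26.3% to 34.2% in knockdown and 24.7% to 26.6% in rescue livers, so rescue mice lay below all control mice. Hepatocyte markers were abundant in every mouse, and the sum of 7 was 77050 to 112600, 82750 to 96250 and 70520 to 84080 TPM in the 3 groups. Apoa1 (-0.60) and Fgb (-0.52) passed the threshold of the study as lower after knockdown, and Apoa1 in rescue minus control. The median of ratios added Cps1 after knockdown and Fgb in rescue minus control, whereas with quantile normalization none of the 7 passed. Adipocytes also make fatty acids: of their 6 markers Lep was at 0 in all 12 mice, Adipoq, Plin1 and Retn stayed below 1 TPM, and Cfd and Cidec, the 2 that were tested, ran from 1.61 to 37.9 and from 4.96 to 44.8 TPM. Neither passed the threshold of the study, with a median of 0.56 after knockdown and 0.77 in rescue minus control. The summed level of the 6 was 8.53 to 48.5, 20.3 to 82.8 and 30.7 to 53.2 TPM in the 3 groups. Of 4 endothelial markers Stab2 rose after knockdown (0.54, adjusted p = 0.0476). It missed the threshold of the study with the median of ratios or quantile normalization. The summed level of the 4 was 74.5 to 123, 118 to 146 and 114 to 133 TPM. Of 4 cholangiocyte markers, of which 3 were tested, Sox9 passed the threshold of the study (0.64), with summed levels of 6.07 to 11.6, 7.92 to 17.0 and 9.29 to 12.4 TPM. Of the 5 Kupffer cell, 6 T and NK cell and 5 stellate cell markers 0 passed in any comparison with the scaling unchanged, and their sums overlapped between all groups. With the median of ratios or quantile normalization Ncr1, of the T and NK cell markers, passed as lower in rescue minus control. The part of these cell types in the result was not tested. In whole liver, more cells of a type and more RNA per cell cannot be told apart.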

How the data were processed

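Liver RNA-Seq of 12 mice was analysed, grouped by sample title into 3 groups (n = 4 each). Per the labels, the authors made strand-specific libraries, trimmed reads with fastp 0.23.2, checked them with FastQC 0.11.8, aligned them with HISAT2 2.2.1.0 to GRCm38.p6, counted them with featureCounts (Subread 2.0) and deposited TPM values. TPM sums to the same total in every sample, so read depth is unknown, and precision was taken from the spread between mice. Whether mice of a group shared a cage or a day is not given in the sources used here.

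The log2(TPM + 1) of 16378 genes, those averaging 1 TPM or more, was analysed in R 4.3.3 with limma 3.58.1 (1 model over the 3 groups, empirical Bayes with a mean-variance trend, Benjamini-Hochberg adjustment over all tested genes). Calls used the threshold of the study and, separately, an adjusted p under 0.05. Ratios within a mouse were compared by exact permutation tests. Promoter windows came from RefSeq (GRCm38.p6), read with Python 3.11.15, and matplotlib 3.10.9 drew the figures. The scripts were first tested on simulated data. The 10 genes, the lists, the pairs and the motifs were chosen with earlier results of these data known. From each list up to 6 called genes with the largest change were named, with Srebf1, Mlxipl and Nr1h3 in every case, and the other called genes of a list were named after their values were seen. Alternatives were a filter at 5 TPM or none, a pseudocount of 0.1, quantile normalization, median-of-ratios scaling, rescaling without the 20 highest genes or over protein-coding genes, 2 groups alone, no trend, array weights, a replicate block, and leaving out each mouse in turn. No sample or column was left out. The values of 4 genes of these lists or likenesses are not reported here.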

Additional observations from a re-analysis of the deposited data

Results flagged for a closer look

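Single mice far from the other 3 of their group were looked for in each gene and group, 30 sets of 4 mice, of which chance picks out about 1 in 20. There were 2. Slc25a1 in Ad-Ctrl replicate 1 was at 247 TPM (247.429 as deposited) against 209 to 209.8 TPM in the other 3 control mice, a gap of 0.981 of the range of the group. Me1 in Ad-shmGULL replicate 2 was at 1123 TPM against 565 to 613 TPM in the other 3 knockdown mice, a gap of 0.883 of the range. Both mice were also the highest of their group for most of the 10 genes.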

How the results depend on the processing

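All 10 genes kept the direction of their difference in each comparison under every alternative run, and at the threshold of the study 8 to 10 were called after knockdown and 6 or 7 in rescue minus control. Adjusted calls were less steady. After knockdown 8 genes had an adjusted p under 0.05, 5 with the 2 groups alone and 7 to 9 when 1 mouse was left out. In rescue minus control there were 4, but 0 without the filter, with the median of ratios, with quantile normalization, without the 20 highest genes, over protein-coding genes, without the trend and with the replicate block, 7 with the 2 groups alone, 8 with array weights, and 0 to 7 when 1 mouse was left out. In rescue minus knockdown the 5 genes at the threshold of the study became 2 to 6 when 1 mouse was left out. Same-numbered mice did not deviate together (correlations -0.24 to 0.15), so the numbers were taken as names, and the replicate block changed no other count of the 10 genes by over 1.5 times.

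Over all tested genes, knockdown minus control had 529 with an adjusted p under 0.05, and 236 without the filter, 33 with the 2 groups alone, 344 without the trend and 165 to 1057 when 1 mouse was left out. At the threshold of the study it had 1253, and 765 at a mean TPM of at least 5. Rescue minus knockdown had 492 at that threshold, 242 at a mean TPM of at least 5 and 361 to 848 when 1 mouse was left out, and 0 to 2 by adjusted p. Rescue minus control had 352 by adjusted p, against 9 without the filter, 568 at a mean TPM of at least 5, 11 with the median of ratios or quantile normalization, 12 without the 20 highest genes, 16 over protein-coding genes, 1693 with the 2 groups alone, 35 without the trend, 3184 with array weights, 71 with the replicate block and 3 to 1068 when 1 mouse was left out. At the threshold of the study it had 1226, against 708 at a mean TPM of at least 5, 723 with the median of ratios and 701 with quantile normalization. Scaling by the median of ratios changed the split of higher to lower calls from 876 and 377 to 625 and 548 after knockdown, from 382 and 110 to 245 and 166 in rescue minus knockdown, and from 1121 and 105 to 486 and 237 in rescue minus control. Apart from fewer genes or mice in a fit, the cause was not tested. TPM keeps no depth, so no limit of detection can be given.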
